A study of Mus musculus with 12 samples.

Results

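The genes described here carry MHC class II antigen presentation in the mouse. They are 8 genes of the 55092 features in the expression table, taken by symbol, with no threshold on their values: H2-Aa, H2-Ab1 and H2-Eb1, which encode chains of the classical class II molecules, H2-DMa, H2-DMb1 and H2-DMb2, which encode chains of the peptide editor H2-DM, Cd74, the invariant chain, and Ciita, the class II transactivator. RNA-Seq was performed on the abdominal aorta of 12 male mice in 4 groups of 3, with 1 library per mouse. CCN2fl/fl mice, which carry floxed Ccn2 alleles and no Cre, were infused with saline (CFS, mice 68, 69 and 70) or with Ang II (CFA, mice 71, 72 and 74). CCN2SMCΔ mice, which carry the same floxed alleles and the Myh11-Cre-ERT2 transgene, were infused with saline (CSS, mice 54, 55 and 56) or with Ang II (CSA, mice 01, 02 and 03). All 12 mice had received 5 doses of tamoxifen from 8 weeks of age and a washout of 2 weeks, and the infusion lasted 7 days, at 500 ng/kg/min for Ang II. Myh11 drives Cre in smooth muscle cells, so other cells of the aorta keep Ccn2. The comparisons ask how the class II genes differ between genotypes with and without Ang II, and how Ang II changes them in each genotype.

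MHC class II molecules present peptides from engulfed proteins to CD4+ T cells. An alpha and a beta chain pair in the endoplasmic reticulum around the invariant chain, endosomal proteases then cut the invariant chain down to a short fragment, and H2-DM exchanges this fragment for an antigen peptide. Dendritic cells, macrophages and B cells carry class II at steady state, and other cells of the vessel wall can switch it on after interferon-gamma, which induces Ciita, the factor on which transcription of the other genes depends.

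Values are FPKM, the fragments of a gene per kilobase of its length and scaled to the size of the library, as deposited, so levels can be set side by side between genes. The recovered fragments numbered 14558580 to 23107811 per library, with the lowest total in CSA mouse 03. That library also stood apart from the rest of its group, at a root mean square difference of 1.186 to 1.196 on the log2 scale, against 0.494 between CSA mice 01 and 02 and 0.578 to 0.728 between the mice of the other groups. The deleted gene, Ccn2, measured 766 ± 318 FPKM in CFS, 554 ± 106 in CSS, 894 ± 290 in CFA and, in CSA, 328 ± 71.9 (SD with n = 3 mice per group), and its groups overlapped under saline and did not overlap under Ang II. Ccn2 was not called in either comparison of genotypes, with a log2 fold change of -0.40 under saline (limma adjusted p = 1.0) and of -1.41 under Ang II (limma adjusted p = 0.00622), under the fold limit. Ccn2 shares 23.2% of its exonic bases with Gm15270 on the opposite strand, and counting without strand could exchange fragments between them. By qPCR, the paper reports a larger loss of Ccn2 mRNA in Ang II-infused CCN2SMCΔ aortas than these FPKM show. Smooth muscle markers, which check the tissue, summed to 5530 to 10300 FPKM per mouse in CFS, CSS and CFA and to 800 to 959 FPKM in CSA. A difference was called when limma gave an adjusted p under 0.05 (Benjamini-Hochberg over 14676 tested genes) and an absolute log2 fold change over 1.5. All 8 class II genes passed the filter on low values (1 FPKM in at least 3 libraries), 6 of them in the other groups alone. H2-DMb2 and Ciita passed only with the CSA mice, so the filter itself favours a higher level in CSA for these 2 genes. In bulk tissue, fewer cells of a type and less RNA per cell cannot be told apart. The limma p-values set each difference against a spread between mice estimated from all 4 groups together and adjusted toward that of other genes. A wider spread within CSA, where mouse 03 stood apart, is thus averaged with that of the other groups.

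Every class II gene was highest in the Ang II-infused CCN2SMCΔ aortas. The 4 abundant genes, Cd74, H2-Eb1, H2-Ab1 and H2-Aa, were 7.43 to 8.10 times as high in the mean of CSA as in the mean of CFA, and the 4 scarcer genes, Ciita, H2-DMb2, H2-DMa and H2-DMb1, 3.88 to 5.11 times as high. In every group Cd74 had the highest mean, followed by H2-Eb1, H2-Ab1, H2-Aa, H2-DMb1 and H2-DMa. H2-DMb2 and Ciita were last, with overlapping ranges in CSS, CFA and CSA. H2-Eb1 and H2-Ab1 overlapped in all 4 groups, although H2-Eb1 was the higher of the pair in each of the 3 mice of each group. The 8 genes summed to 0.0448% to 0.228% of all FPKM in the libraries of CFS, CSS and CFA and to 0.974% to 1.14% in CSA.

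**Figure D1:**
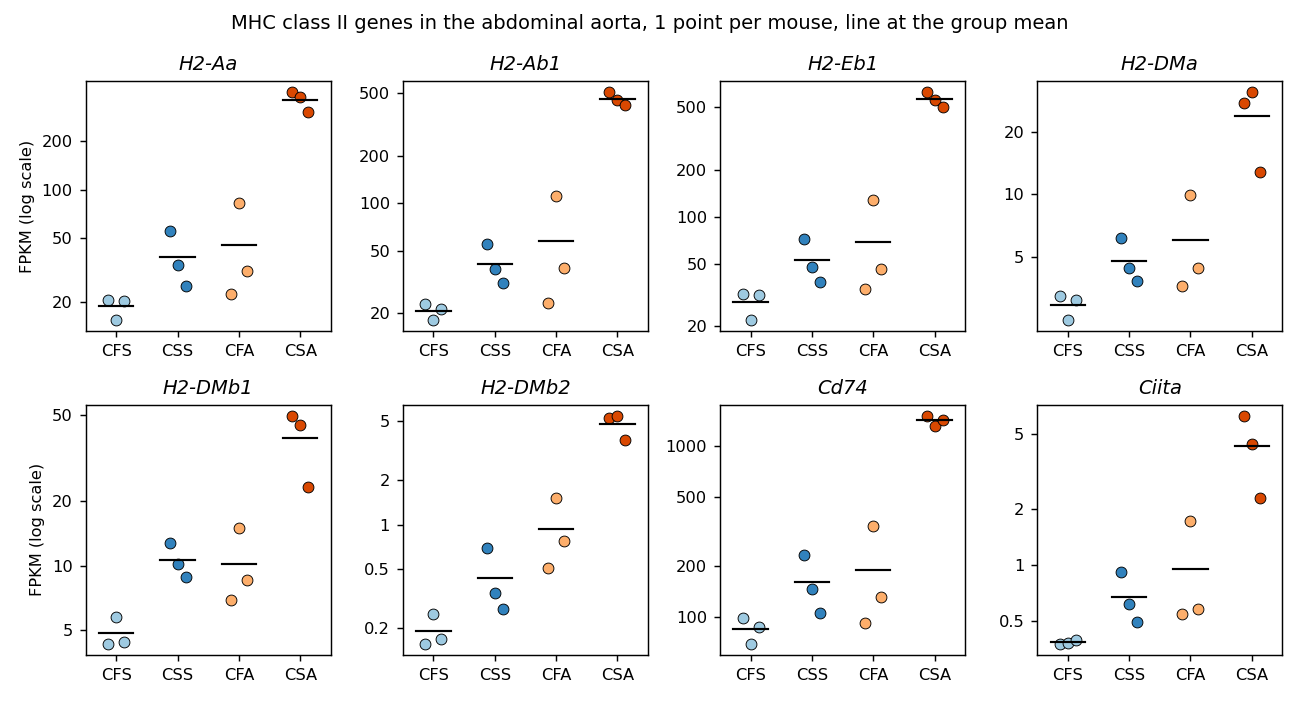
FPKM (log scale) of the 8 class II genes in each mouse, with 1 point per mouse and a line at the group mean of 3 mice. The CSA mice lie above every mouse of the other groups for all 8 genes, and CFA mouse 72 (middle point) is the highest of its group in every panel.

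Cd74 (ENSMUSG00000024610, chromosome 18, 60803848 to 60812652, GRCm38) encodes the chaperone that fills the peptide groove during assembly. It measured 99.4, 70.5 and 87.8 FPKM in the CFS mice, 231, 147 and 106 in CSS, 92.3, 343 and 132 in CFA, and 1488, 1311 and 1415 in CSA. The lowest CSA mouse was far above the highest CFA mouse, while CFS and CFA overlapped. Between CSA and CFA the log2 fold change was 3.12 (standard error 0.42, limma adjusted p = 0.000162, with the Benjamini-Hochberg correction).

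H2-Aa (ENSMUSG00000036594, chromosome 17, 34282744 to 34287823, minus strand) encodes the alpha chain of I-A. Its FPKM was 20.6, 15.4 and 20.2 in CFS, 55.2, 34.1 and 25.3 in CSS, 22.3, 82.7 and 31.2 in CFA, and 405, 377 and 306 in CSA. The log2 fold change between CSA and CFA was 3.22 (standard error 0.42, adjusted p = 0.000142, limma). H2-Ab1 (ENSMUSG00000073421, chromosome 17, 34257689 to 34269419, plus strand) encodes the beta chain that pairs with it. It measured 22.8, 18.2 and 21.5 FPKM in CFS, 54.96, 38.2 and 31.1 in CSS, 23.1, 112 and 38.8 in CFA, and 504, 450 and 417 in CSA, a log2 fold change of 3.29 between CSA and CFA (standard error 0.45, adjusted p = 0.000181, limma). The alpha and beta chains kept close to each other, with H2-Ab1 at 0.995 to 1.36 times H2-Aa in single mice.

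H2-Eb1 (ENSMUSG00000060586, chromosome 17, 34305867 to 34316674, plus strand) encodes the beta chain of I-E. Its FPKM was 31.9, 21.9 and 31.4 in CFS, 71.8, 47.9 and 38.4 in CSS, 34.3, 127 and 45.9 in CFA, and 622, 560 and 500 in CSA. The log2 fold change between CSA and CFA was 3.25 (standard error 0.41, adjusted p = 0.000113, limma). The gene of its alpha chain partner is annotated in this genome as the pseudogene H2-Ea-ps, which was listed at 0 in all 12 libraries.

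The chains of H2-DM were present at lower levels and also rose. H2-DMa (ENSMUSG00000037649, chromosome 17, 34119541 to 34139101), the alpha chain, measured 3.23, 2.48 and 3.07 FPKM in CFS, 6.16, 4.41 and 3.81 in CSS, 3.61, 9.99 and 4.43 in CFA, and 27.6, 31.2 and 12.8 in CSA. Its log2 fold change between CSA and CFA was 2.02 (standard error 0.40, adjusted p = 0.00207, limma), and the lowest CSA value, from mouse 03, lay just above the highest CFA value, from mouse 72. H2-DMa shares 10.4% of its exonic bases with Brd2 on the opposite strand, and counting without strand could exchange fragments between them.

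H2-DMb1 (ENSMUSG00000079547, chromosome 17, 34153072 to 34160230) and H2-DMb2 (ENSMUSG00000037548, chromosome 17, 34143307 to 34151555) are neighbouring genes for the beta chain. H2-DMb1 measured 4.34, 5.76 and 4.41 FPKM in CFS, 12.8, 10.1 and 8.85 in CSS, 6.89, 14.9 and 8.58 in CFA, and 49.5, 45.2 and 23.1 in CSA (CSA against CFA: log2 fold change 1.95, standard error 0.33, adjusted p = 0.000725, limma). H2-DMb2 measured 0.158, 0.250 and 0.170 FPKM in CFS, 0.692, 0.347 and 0.269 in CSS, 0.510, 1.52 and 0.772 in CFA, and 5.21, 5.38 and 3.70 in CSA (log2 fold change 2.34, standard error 0.41, adjusted p = 0.000937, limma). For both genes the 3 CSA mice lay above the 3 CFA mice. The CFS level of H2-DMb2 is worth an estimated 5.11 to 8.17 fragments per library. Of all 50-base windows in the annotated transcripts, 21.2% of those of H2-DMb2 occur in H2-DMb1 and 22.7% of those of H2-DMb1 occur in H2-DMb2, so fragments from these windows cannot be assigned to either gene with certainty.

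Ciita (ENSMUSG00000022504, chromosome 16, 10480059 to 10528418) encodes a coactivator that is recruited to class II promoters and binds no DNA itself. Its FPKM was 0.380, 0.381 and 0.395 in CFS, 0.914, 0.617 and 0.496 in CSS, 0.549, 1.71 and 0.579 in CFA, and 6.26, 4.42 and 2.29 in CSA, from 65 to 1211 fragments per library. The CSA mice spread more widely than for Cd74 and still lay above the CFA mice. The log2 fold change was 2.14 (standard error 0.46, adjusted p = 0.00315, limma), and with a pseudocount of 1 in place of 0.1 it was 1.43, under the fold limit.

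Between CSA and CFA, all 8 genes were called higher, 6 of them without help from the filter, in a comparison in which 8.95% of all tested genes were called higher. In each of the 8 the CSA and CFA groups did not overlap, which was so, with CSA higher, for 23.4% of all tested genes (two-sided exact permutation p = 0.1 for each, the smallest that 3 against 3 mice allow). The median log2 fold change was 2.73 over the class II genes and -0.04 over all tested genes. When the test asked for a change beyond the fold limit itself (limma's treat), 4 genes passed, with H2-DMa, H2-DMb1, H2-DMb2 and Ciita no longer called.

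Within CCN2SMCΔ mice, all of these genes were higher with Ang II than with saline. CSA lay above CSS for all 8 genes, and all 8 were called, with log2 fold changes from 1.82 for H2-DMb1 to 3.498 for H2-Ab1 (median 3.22, adjusted p = 5.39e-05 to 0.00117, limma). In this comparison 10.9% of all tested genes were called higher and 26.3% had CSA above CSS without overlap. H2-DMb2 showed a log2 fold change of 3.24 here (standard error 0.41), against 2.34 between CSA and CFA. The comparisons share the CSA mice and are not independent of each other.

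Within CCN2fl/fl mice the class II genes were higher in CFA than in CFS by smaller amounts, and none was called. The log2 fold changes ran from 0.88 for H2-DMa to 1.71 for H2-DMb2 (median 1.02), with adjusted p from 0.164 to 0.574 and an unadjusted p under 0.05 for 5 of the 8 genes and for 1383 of the 14676 tested (limma). Of all tested genes, 0.0204% were called higher in this comparison. The groups did not overlap for 7 of the 8 genes, the exception being Cd74, against 9.44% of all tested genes. H2-DMb2 had the largest of these differences, from 0.193 ± 0.0501 FPKM in CFS to 0.933 ± 0.522 in CFA (SD over 3 mice, limma adjusted p = 0.164), but with a pseudocount of 1 in place of 0.1 its log2 fold change was 0.66 in place of 1.71. Much of the difference came from CFA mouse 72, without which the log2 fold changes ran from 0.38 for Cd74 to 1.33 for H2-DMb2 (median 0.50). Mouse 72 was the highest of its group for 8 of 8 genes, at 343 FPKM of Cd74 against 92.3 and 132 in the other CFA mice.

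Under saline, the CCN2SMCΔ aortas had higher class II levels than the CCN2fl/fl aortas without any gene passing the test. The CSS mice lay above the CFS mice for 8 of 8 genes, against 11.1% of all tested genes, with log2 fold changes from 0.64 for Ciita to 1.11 for H2-DMb1 (median 0.85, against 0.01 over all tested genes). With a pseudocount of 1 in place of 0.1 the log2 fold change of Ciita was 0.27, and that of H2-DMb2 was 0.26 in place of 0.81. In the fit as reported the adjusted p ran from 0.489 to 0.983 (limma). H2-DMb1 (unadjusted p = 0.00625) and H2-Aa (unadjusted p = 0.0455) had an unadjusted p under 0.05, which 924 of the 14676 tested genes had, and 0.00681% of all tested genes were called higher. Without CSS mouse 54 the log2 fold changes ran from 0.43 to 0.97 (median 0.58). The class II genes were ordered alike among the CSS mice, since mouse 54 was the highest and mouse 56 the lowest for 8 of 8 genes, but not among the CFS mice, where mouse 68 was the highest for 5 genes and the lowest for 3. The 8 genes share the same libraries and are not 8 separate results.

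**Figure D2:**
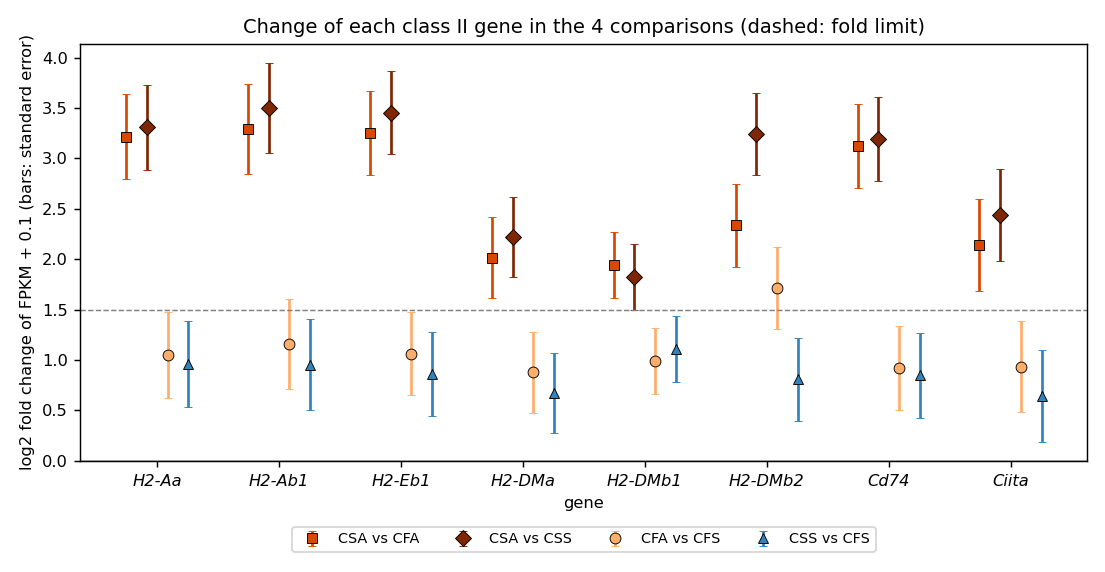
Log2 fold change of FPKM + 0.1 (bars, standard error from limma, 3 mice per group) of each class II gene in the 4 comparisons. The comparisons that involve CSA lie between 1.82 and 3.498, and those between the other groups between 0.64 and 1.71. The dashed line is the fold limit of 1.5.

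Whether the genotype difference was larger with Ang II than with saline was tested as an interaction. It was called for H2-Eb1 (a log2 difference of 2.39, standard error 0.59, adjusted p = 0.0118), H2-Ab1 (2.34, standard error 0.64, adjusted p = 0.0194), Cd74 (2.27, standard error 0.59, adjusted p = 0.0161) and H2-Aa (2.26, standard error 0.60, adjusted p = 0.0175, all from limma). It was not called for H2-DMb2 (1.53, adjusted p = 0.0764), Ciita (1.5, adjusted p = 0.114), H2-DMa (1.34, adjusted p = 0.107) or H2-DMb1 (0.84, adjusted p = 0.218). Of all tested genes, 7.89% were called higher in the interaction. Without CFA mouse 72, 7 of the 8 genes were called, without CSA mouse 03, 6, and without CSS mouse 56, 3.

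The proportions among the class II genes also differed. These ratios were chosen after the values were seen and are given as a description. H2-DMa stood at 12.6% to 13.4% of the mean of H2-Aa, H2-Ab1 and H2-Eb1 in CFS, 10.2% to 12.1% in CSS, 9.31% to 13.6% in CFA and 3.15% to 6.74% in CSA. H2-DMb1 stood at 17.2% to 31.1%, 21.1% to 28%, 13.9% to 25.9% and 5.66% to 9.77% of that mean in the same order of groups. Ciita stood at 1.51% to 2.06% in CFS, 1.51% to 1.57% in CSS, 1.5% to 2.06% in CFA and 0.561% to 1.23% in CSA. For these 3 genes the CSA mice thus lay below all 9 other mice. Cd74 was 3.60 to 3.95 times the classical mean in CFS and 2.83 to 3.47 times in CSA, where it overlapped with CFA at 3.19 to 3.47 times. H2-DMb2 went the other way against its neighbour, at 3.65% to 4.34% of H2-DMb1 in CFS, 3.04% to 5.41% in CSS, 7.40% to 10.2% in CFA and 10.5% to 16.0% in CSA. Both groups infused with Ang II lay above both saline groups in this ratio. In the saline mice the ratio rests on an estimated 5.11 to 22.48 fragments of H2-DMb2 per library, and the genes share part of their sequence.

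**Figure D3:**
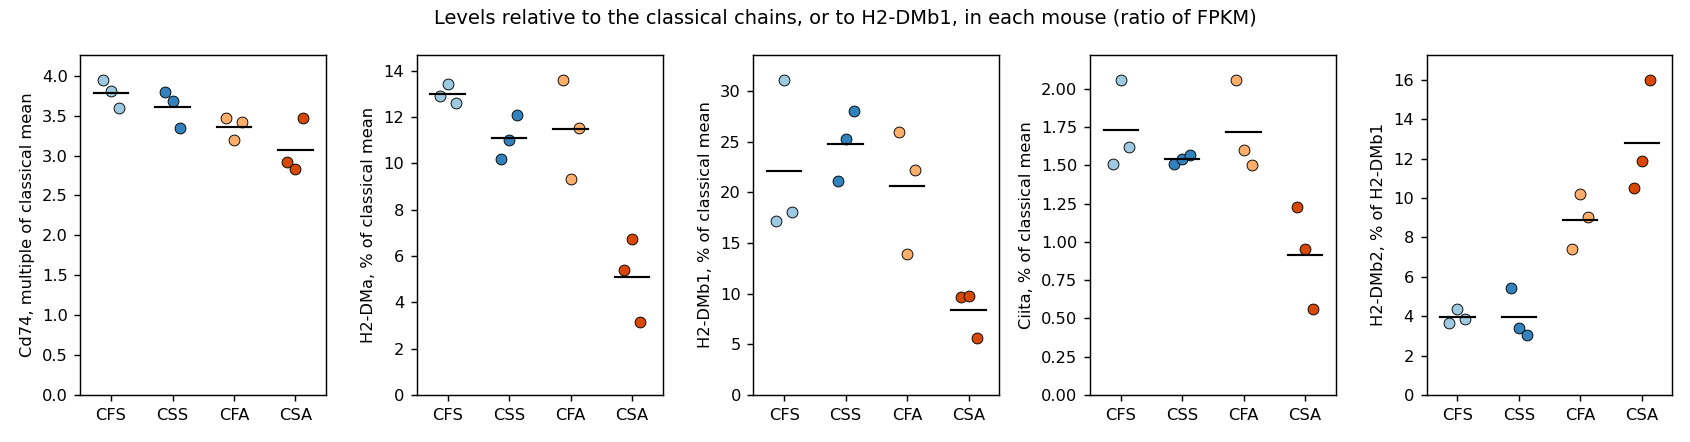
Ratio of FPKM in each mouse (1 point per mouse, line at the mean of 3), with Cd74, H2-DMa, H2-DMb1 and Ciita set against the mean of H2-Aa, H2-Ab1 and H2-Eb1, and H2-DMb2 against H2-DMb1. The CSA mice are lowest for H2-DMa, H2-DMb1 and Ciita, and H2-DMb2 stands at 3.94% of H2-DMb1 in the mean of CFS and at 12.8% in the mean of CSA.

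Class II promoters carry a conserved module in which an X box, bound by the RFX complex and CREB, is followed by a Y box, bound by NF-Y. Ciita acts on the complex assembled there. RefSeq promoters (GRCm38.p6, 250 bases before to 50 after each start) were at hand for 5 of the 8 genes, and H2-Ab1, Cd74 and Ciita had no entry. Both strands were searched for an X box written as AG, then 2 bases of any kind, AC, 2 more of any kind and ATG, and for the Y box GATTGG, whether or not they overlapped. Of 32851 promoters, 3.09% held the X box, 16.1% the Y box, and 14 (0.0426%) an X box with a Y box beginning 10 to 40 bases after it on the same strand. Of these 14 promoters, 4 belong to class II genes, H2-Eb1, H2-DMb1, H2-Ob and H2-Eb2. In H2-DMb1 the X box reads AGTAACTGATG, 95 bases before the RefSeq start, with GATTGG after a gap of 22 bases. The stretches below are shown because they hold the paired boxes in a class II gene that rose (H2-Eb1) and in H2-Ob, or the Y box with no X box of these letters (H2-Aa and H2-DMb2). Capitals mark the X box and the Y box.
H2-Eb1 (chr17:34305745-34305822, plus strand): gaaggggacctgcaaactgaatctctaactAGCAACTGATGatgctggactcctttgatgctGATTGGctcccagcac
H2-Ob (chr17:34238787-34238862, plus strand): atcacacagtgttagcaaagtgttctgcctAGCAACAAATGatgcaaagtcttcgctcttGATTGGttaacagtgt
H2-Aa (chr17:34287857-34287932, minus strand): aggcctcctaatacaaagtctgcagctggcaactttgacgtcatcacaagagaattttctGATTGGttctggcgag
H2-DMb2 (chr17:34145098-34145173, plus strand): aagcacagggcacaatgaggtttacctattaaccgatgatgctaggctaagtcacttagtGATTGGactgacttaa

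All 5 class II genes with a promoter entry held a Y box in at least 1 entry, and H2-Eb1 and H2-DMb1 held the X box as well. The Y box lay 49 bases before the start in H2-Aa, 62 in H2-DMb1 and 91 in H2-DMb2. The absence of the X letters from H2-Aa, H2-DMa and H2-DMb2 says only that these exact letters are not in the window. The factors that bind these boxes were expressed in every group. All 7 of Rfx5, Rfxap, Rfxank, Nfya, Nfyb, Nfyc and Creb1 were tested, none was called in any of the comparisons, and their median log2 fold change between CSA and CFA was -0.08. The largest of these differences were those of Rfxank (-0.39, adjusted p = 0.171), Nfyb (0.13, adjusted p = 0.397) and Rfx5 (-0.11, adjusted p = 0.554, limma).

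Of the genes on the path from interferon-gamma to Ciita, Irf8, a transcription factor of myeloid cells, rose between CFA and CSA from 1.81 to 14.6 FPKM (log2 fold change 2.99). Irf1, an interferon-induced transcription factor, had a log2 fold change of 1.32 (adjusted p = 2e-04, limma), under the fold limit. Ifng itself was below the filter on low values and was not tested. It was listed at 0 to 0.179 FPKM in the CFS mice, at 0 in all CSS and CFA mice and at 0.291 to 0.454 FPKM in the CSA mice.

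The remaining steps of presentation moved in part. Among 10 genes of endosomal antigen processing 4 were called higher between CSA and CFA, against 8.95% of all tested genes. They were led by Ctss, the protease that makes the final cuts in the invariant chain (log2 fold change 4.60, from 33.9 to 713 FPKM). Lgmn, an asparagine endopeptidase (2.28), and Ifi30, the lysosomal thiol reductase (2.14), followed. Of 6 tested genes of class II turnover and trafficking 2 were called higher, against the same 8.95%. These were March1, a ubiquitin ligase that removes class II from the surface (2.80), and Cd83, which opposes it (2.10). The tetraspanin Cd9 stood at -0.83, under the fold limit. Among the costimulatory ligands, Cd86 (3.17), Cd80 (2.72) and the checkpoint ligand Cd274 (2.56) rose. March1 and Cd80 passed the filter on low values only with the CSA mice. H2-Ob, a chain of the H2-DM inhibitor H2-DO, rose from 0.450 ± 0.118 to 2.18 ± 0.240 FPKM (SD over 3 mice), a log2 fold change of 2.07 (limma adjusted p = 0.0132). It too passed the filter only with the CSA mice, and with a pseudocount of 1 its log2 fold change was 1.14. Its partner H2-Oa was below the filter on low values, at 0.0718 to 0.753 FPKM in CFA and 0.695 to 3.34 in CSA.

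The MHC class I path, which presents peptides from inside the cell, rose in part. Between CSA and CFA 8 of its 15 genes were called higher, against 8.95% of all tested genes, with a median log2 fold change of 1.66. The largest changes were those of Nlrc5, the class I counterpart of Ciita (2.90), H2-Q7 (2.73) and the peptide transporter Tap1 (2.51). The class I median was -0.01 in CFA against CFS and 0.24 in CSS against CFS, with none called in either comparison. The class II medians there were 1.02 and 0.85. Leukocyte lists, described below, also had positive medians in CFA against CFS. In the same order of comparisons, the medians were 0.94 and 0.35 for pan-leukocyte and 0.55 and 0.15 for macrophage markers. They were 0.81 and -0.04 for dendritic cell markers and 0.59 and 0.66 for T cell markers. The differences between the lists were not tested.

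**Figure D4:**
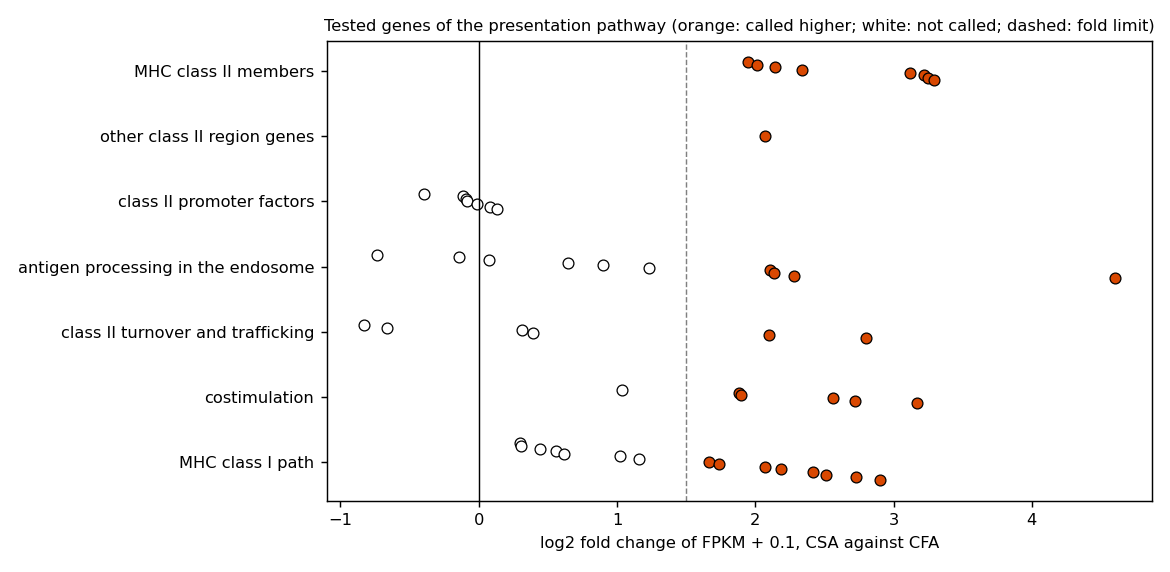
Log2 fold change of FPKM + 0.1 between CSA and CFA for every tested gene of the class II list and of 6 other presentation lists, 1 point per gene (orange, called higher; white, not called; dashed line, fold limit of 1.5). All 8 class II genes lie right of the limit, and the 7 promoter factors lie between -0.39 and 0.13.

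The summed markers of cells that carry class II were also highest in CSA, though not every marker was. Of 6 pan-leukocyte markers 6 were called higher between CSA and CFA, against 8.95% of all tested genes (median log2 fold change 3.51, led by Cd52, Cd53 and Ptprc). Their summed level was 38.2 to 43.2 FPKM in CFS, 45.5 to 55.8 in CSS, 48.8 to 108 in CFA and 562 to 600 in CSA. Of 12 macrophage markers 10 were called higher, against the same 8.95% (median 2.68, led by Fcgr1, Aif1 and Itgam). Itgam passed the filter only with the CSA mice. The macrophage sums were 308 to 366, 332 to 403, 373 to 781 and 2500 to 2770 FPKM in the same order. Mertk, a macrophage receptor for dying cells, was lower, at 25.0 ± 5.86 FPKM in CFA and 15.2 ± 4.43 in CSA (SD over 3 mice, log2 fold change -0.73, under the fold limit). Dendritic cell markers had sums of 17.4 to 21.1, 15.8 to 18.2, 23.6 to 45.1 and 79.7 to 119 FPKM. Of the 11 tested, Ccr7, Itgax and Ccl22 had the largest log2 fold changes (4.32, 3.66 and 3.33), but all of these, and 6 of the 7 called higher, passed the filter only with the CSA mice. Zbtb46, a transcription factor of classical dendritic cells, was lower (log2 fold change -0.80, limma adjusted p = 0.00158, under the fold limit), and Cd209a stood at -0.11 (adjusted p = 0.856). B cell markers stayed scarce, at 0.756 to 2.57, 1.46 to 4.50, 1.64 to 2.82 and 5.96 to 9.33 FPKM, and of the 2 tested, which passed the filter only with the CSA mice, Cd79b had a log2 fold change of 2.43, while Cd79a, the signalling partner of Cd79b in the B cell receptor, had a log2 fold change of 0.03 that turned negative under other settings. Markers of T cells, the cells that class II addresses, summed to 1.06 to 3.26 FPKM in CFA and 31.6 to 44.4 in CSA. All 8, Trac, Cd2 and Cd4 among them, passed the filter only with the CSA mice, so the share of them called is not given as a result. None of the pan-leukocyte, macrophage, dendritic, B or T cell markers was at 0 in all mice of any group.

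Other cell types were compared between CSA and CFA. Neutrophil markers summed to 13.9 to 33.0 FPKM in CFA and 531 to 575 in CSA. Of 6 monocyte markers 4 were called higher, against 8.95% of all tested genes. Of these, Ly6c2 and Chil3 passed the filter only with the CSA mice, so the filter itself favours a higher level in CSA for them. The other 2 were Plac8 (5.12 to 152 FPKM in the means) and Ccr2 (4.54 to 69.1 FPKM). Fn1, which smooth muscle cells and fibroblasts also make, had a log2 fold change of -0.98, under the fold limit. Smooth muscle markers were called lower in 8 of 8 (median -2.99, led by Myh11, Cnn1 and Lmod1), against 8.27% of all tested genes called lower. Endothelial markers were called lower in 3 of 6, adipocyte markers in 2 of 6 and skeletal muscle markers in 1 of 5, and none of the 6 fibroblast and 2 tested lymph node stroma markers was called. The high class II levels of CFA mouse 72 came with the highest pan-leukocyte (108 FPKM), macrophage (781 FPKM) and dendritic cell (45.1 FPKM) sums of its group. Those of CSS mouse 54 came with the highest pan-leukocyte (55.8 FPKM), dendritic cell (18.2 FPKM), B cell (4.50 FPKM) and T cell (4.32 FPKM) sums of its group and a macrophage sum of 389 FPKM, between its group mates. Under saline the macrophage sums of CSS and CFS overlapped, whereas the pan-leukocyte sums and the class II sums (135 to 183 FPKM in CFS, 214 to 433 in CSS) did not. How much of each class II difference goes with these cells was not tested.

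**Figure D5:**
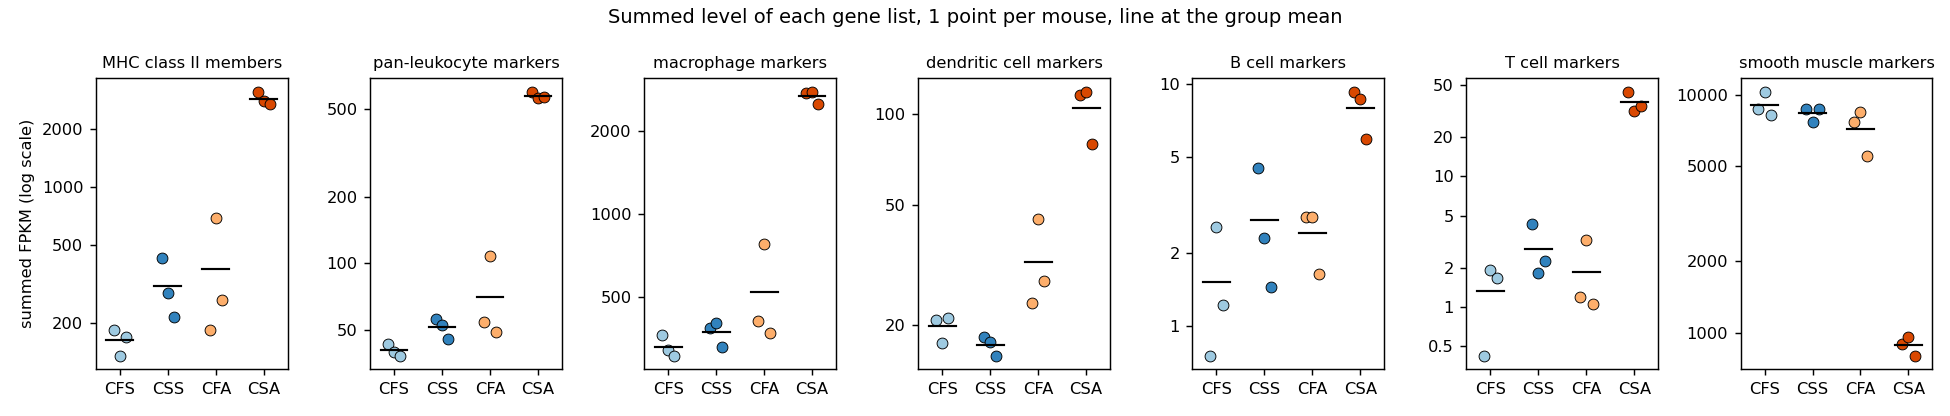
Summed FPKM (log scale) of the class II genes and of cell type marker lists in each mouse (1 point per mouse, line at the mean of 3). The leukocyte lists are highest in CSA and the smooth muscle list lowest, and CFA mouse 72 (middle point) has the highest class II sum of its group, 693 FPKM.

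To set the class II genes against these markers, the mean log2 level of each marker list was subtracted from the log2 level of each gene in the same library. Relative to the 12 macrophage markers, the difference between CSA and CFA had a median of 0.15 over the 8 genes, with the sign divided among them. It was positive without overlap for H2-Ab1 (0.71), H2-Eb1 (0.68), H2-Aa (0.64) and Cd74 (0.55), negative without overlap for H2-DMb1 (-0.63), and overlapping for H2-DMa (-0.56), Ciita (-0.43) and H2-DMb2 (-0.24). The two-sided exact permutation p was 0.1 for those that did not overlap (adjusted p = 0.16 over the 8 genes), the smallest possible. Without CFA mouse 71 the median was -0.07. Relative to the pan-leukocyte markers the median was -0.61, with H2-DMa, H2-DMb1, H2-DMb2 and Ciita lower without overlap and the classical chains and Cd74 overlapping (differences of -0.22 to -0.05). Relative to the dendritic cell markers it was 0.93 and relative to the B cell markers 1.87, but no conclusion is drawn from these values. These means take in all 12 dendritic cell and all 8 B cell markers, of which 11 and 2 passed the filter on low values. The pseudocount understates the changes of such low genes. Of the 11 tested dendritic cell markers 6 passed the filter only with the CSA mice, as did the 2 tested B cell markers. The sign of the median thus differed between the macrophage and pan-leukocyte markers. The order within the class II genes, with the classical chains and Cd74 above the H2-DM chains and Ciita, was the same against each list. This is because the same quantity is subtracted from every gene.

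Over the 12 libraries, the genes outside the 8 whose centred log2 levels lay closest to the mean pattern of the class II genes were Wdfy4 (root mean square difference 0.19), Cd300a (0.229), Rasal3 (0.271), Tifab (0.281) and Ptpn7 (0.288), out of 14383 genes ranked. The class II genes themselves lay at 0.238 (Cd74) to 0.455 (H2-DMb1) from their own mean. Wdfy4 had mean levels of 0.446, 0.953, 1.05 and 5.89 FPKM in CFS, CSS, CFA and CSA.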

How the data were processed

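The authors deposited FPKM for 12 libraries (poly(A) RNA, paired reads of 150 bases), 1 value per gene and mouse without pooling. The submitters' processing notes name HISAT2 2.0.5, StringTie 1.3.3b, featureCounts 1.5.0-p3 and the build mm10. The annotation used is not given in the sources used here. The labels number separate mice, and 0 sample columns were left unused. GENCODE M21 (GRCm38) gave a symbol for 54409 features and positions. Divided by the FPKM of 1 fragment over its exon lengths, 97.8% to 98.4% of the values that stand for fewer than 100 fragments came out whole (tolerance 0.02), and the sum was taken as depth. Among the class II genes only Ciita came out whole. The fragment numbers of the others are estimates. The deposited values carry a further scaling between libraries that the methods do not describe.

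Log2(FPKM + 0.1) was fitted with limma 3.58.1 in R 4.3.3 (robust eBayes with a trend), using the 12 libraries, a coefficient for each of the 4 groups and no covariate. The 14676 genes tested reached 1 FPKM in 3 or more libraries. The pseudocount understates fold changes of low genes. The Benjamini-Hochberg adjustment was made separately for each comparison. Calls needed a log2 fold change beyond 1.5 in either direction and an adjusted p under 0.05. Single values were compared by a two-sided exact permutation test (scipy 1.17.1). Tables used Python 3.11.15, pandas 2.3.3 and numpy 2.4.6, and figures matplotlib 3.10.9.

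The 8 genes and the gene lists were chosen with earlier results of these data known. Named genes are the 8, the 3 tested genes with the largest change between CSA and CFA of the presentation and main marker lists (other lists as counts, and 1 gene that the rule selects is not reported here), Ccn2, and the 5 genes closest in pattern. Mertk, Zbtb46, Cd209a, the monocyte markers, Ifng, H2-Oa and H2-Ea-ps were named outside this rule, after their values were seen. Alternatives tried were no filter on low values, a pseudocount of 1, scaling to library totals, median-of-ratios scaling, eBayes without trend and robust settings, array weights, limma's treat, no fold limit, a fit of only the groups compared, other marker lists as reference, and leaving out each mouse. Protein sequences were not used here.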

Additional observations from a re-analysis of the deposited data

Results flagged for a closer look

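The effect of the genotype differed between Ang II and saline for 4 of the 8 class II genes by limma's test of the difference itself, with Benjamini-Hochberg adjustment over all tested genes. The genotype effect under Ang II exceeded that under saline by 2.39 on the log2 scale for H2-Eb1 (adjusted p = 0.0118), 2.34 for H2-Ab1 (adjusted p = 0.0194), 2.27 for Cd74 (adjusted p = 0.0161) and 2.26 for H2-Aa (adjusted p = 0.0175). In each of these genes all 3 CSA mice were above all 3 CFA mice (23.4% of all tested genes), and all 3 CSS mice above all 3 CFS mice (11.1%), but none of the 4 was called between CSS and CFS (adjusted p = 0.775 to 0.824). In the test of the difference 7.89% of all tested genes were called higher.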

How the results depend on the processing

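Across 21 alternative settings (20 for the interaction, which a fit of only the groups compared does not give) the 8 class II genes kept their direction in every comparison, and 163 of 168 values between CSA and CFA kept their side of the threshold. The 5 that did not were H2-DMa, H2-DMb1, H2-DMb2 and Ciita under limma's treat and Ciita with a pseudocount of 1 (1.43). The number of class II genes called between CSA and CFA fell to 4 under treat and was 8 whichever mouse was left out, and between CSA and CSS it fell to 5 under treat and was also 8 whichever mouse was left out. It stayed at 0 in the comparisons of CSS with CFS and of CFA with CFS. With a pseudocount of 1 the log2 fold changes of H2-DMb2 and Ciita were 0.26 and 0.27 between CSS and CFS, and 0.66 and 0.44 between CFA and CFS. The interaction was the least stable, with 4 genes called in the fit as reported, 7 with array weights, 0 under treat and 3 to 7 when each mouse was left out (7 without CFA mouse 72, 3 without CSS mouse 56, where H2-Ab1 was no longer called). The median log2 fold change of the class II genes between CSA and CFA ranged from 2.37 to 3.19 when each mouse was left out. The median difference relative to macrophage markers, 0.15, ranged from -0.07 (without CFA mouse 71) to 0.29 when each mouse was left out. It was -0.61 against pan-leukocyte markers. No conclusion is drawn from the values against dendritic cell (0.93) and B cell markers (1.87). Many of those markers failed the filter on low values or passed it only with the CSA mice. Cd79a turned from 0.03 to -0.37 with scaling to library totals and ranged from -0.80 to 1.51 when each mouse was left out. The causes of these shifts were not tested, other than that treat asks for more than the fold limit. No paired analysis was possible because the groups share no mouse numbers. H2-DMb2 in saline mice rests on few fragments, an estimated 5.11 to 22.48 per library, and Ciita on 65 to 162.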
